A study of Oryctolagus cuniculus with 30 samples.

Results

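The integrated stress response and amino acid sensing were followed in rabbit vocal fold mucosa through 10 genes, ATF4, ATF3, DDIT3, TRIB3, CHAC1, SESN2, ASNS, PHGDH, PSAT1 and CASTOR1. All 10 were found by symbol among the 31346 genes counted. The set was chosen by measured values, the low p values of ATF4 and CASTOR1 where injected materials were compared with groups that had no injection. Those comparisons are therefore given below as levels and fitted differences, with no test of the 10 genes.

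RNA was sequenced from 15 New Zealand white rabbits, 3 in each of 5 groups, with each animal's right and left fold sequenced on its own (30 libraries). In 4 groups the superficial mucosa of both folds had been stripped. After 7 days 3 of these groups received 20 µL in both folds, of type I collagen (Col1) or of one of the preparations labelled VFLP (man) and VFLP (au), which the series title describes as hydrogels derived from vocal fold lamina propria. The fourth injured group (injury-only) had no injection, and the control group had neither injury nor injection. Tissue was collected 28 days after treatment, and the labels give neither the starting day of that interval for injury-only animals nor a time for control animals. Age, sex and the meaning of "man" and "au" are not stated in the labels used here.

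When amino acids run short or unfolded protein builds up in the endoplasmic reticulum, kinases phosphorylate the initiation factor eIF2 alpha. General translation then slows, while the mRNA of the transcription factor ATF4 is translated more. ATF4 raises transcription of genes for amino acid synthesis and uptake and of further stress regulators, several of them among the genes followed here. Because ATF4 is set largely by translation, its mRNA level is an incomplete readout of its activity. Amino acid supply is read in parallel by sensors that restrain the growth kinase complex mTORC1, among them Sestrin2 (SESN2) for leucine and CASTOR1 for arginine.

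Between 14.2 and 31.9 M reads fell on genes in each library, with a median of 22.7 M. Levels are CPM, read counts scaled to a common library total with TMM factors. The right and left folds of an animal were summed, so that p values between groups measure the spread between animals, except that injury-only animal 1, with its folds in different batches, entered those tests as 2 units. The labels give batch C for all 6 control and 5 injury-only libraries, and batch D for the right fold of injury-only animal 1 and all 18 injected libraries, without saying what a batch was. Injection and batch can thus be told apart through that 1 library alone. Tissue make-up also differed. Skeletal muscle markers (13 of the 18 listed were found, none at 0 in any group) took 0.448 ± 0.205% of gene reads in Col1, 0.165 ± 0.137% in VFLP (man), 0.81 ± 0.326% in VFLP (au), 1.18 ± 0.386% in injury-only and 4.12 ± 1.0% in control animals (SD, n = 3 each). Markers of squamous epithelium, the lining of the vocal fold edge, took 3.09 ± 0.585% of gene reads in Col1, 2.85 ± 0.903% in VFLP (man), 3.06 ± 0.668% in VFLP (au), 2.02 ± 0.068% in injury-only and 1.53 ± 0.716% in control animals (9 of 10 markers found, none at 0; SD, n = 3 each). In bulk tissue, fewer cells of a type and less RNA per cell cannot be told apart.

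ATF4, the transcription factor at the centre of the response, stood at 41.1, 42 and 47.8 CPM in the 3 Col1 animals, at 38.5, 34.4 and 42 CPM with VFLP (man), and at 54.1, 51 and 40.7 CPM with VFLP (au). It stood at 28.1, 27.8 and 32.3 CPM in injury-only animals and at 28.9, 28.5 and 35.9 CPM in control animals. Every injected animal was above every injury-only animal, while the lowest VFLP (man) animal was below the highest control animal. ATF4 averaged 43.6 ± 3.62 CPM in Col1, 38.3 ± 3.8 in VFLP (man), 48.6 ± 7.04 in VFLP (au), 29.4 ± 2.48 in injury-only and 31.1 ± 4.17 CPM in control animals (SD, n = 3 each). Its means thus descended over VFLP (au), Col1 and VFLP (man), and injury-only was lowest, just under control. The animals of each pair of neighbours in this order overlapped.

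CASTOR1, the cytosolic arginine sensor that restrains mTORC1 when arginine is scarce, had the clearest division. It stood at 36.2, 32.1 and 44.4 CPM in Col1, at 28.2, 24.5 and 40.8 CPM in VFLP (man), and at 33.8, 34.4 and 28.4 CPM in VFLP (au) animals. Injury-only animals had 19.3, 18.6 and 19 CPM and control animals 21.3, 16.6 and 17.6 CPM. All 9 injected animals, between 24.5 and 44.4 CPM, were above all 6 animals without injection, between 16.6 and 21.3 CPM. Squamous epithelium markers divided the same animals the same way, with at least 2.24% of gene reads in every injected animal and at most 2.18% in the others. Endothelium markers (8 of 8 found) divided them in reverse, with at most 0.0175% in every injected animal and at least 0.0213% in the others. The part of these tissues in the CASTOR1 and ATF4 levels was not tested. CASTOR1 was the 1 gene of the 10 higher in all 9 injected animals than in all 6 others, as were 2.05% of all 17770 genes in the fit. Set against injury-only animals alone, both CASTOR1 and ATF4 were higher in all 9 injected animals, as were 3.57% of all genes. Both figures come from the contrast that chose the genes.

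The fitted log2 difference from injury-only for ATF4 was 0.58 in Col1, 0.38 in VFLP (man) and 0.74 in VFLP (au), each with a standard error (SE) of 0.14. For CASTOR1 these differences were 1.00, 0.72 and 0.78 in the same order of materials, each with an SE of 0.19. The 3 differences share the injury-only animals and so are not independent. With a batch term, which rests on a single library, the ATF4 differences were 0.69, 0.50 and 0.85, and those of CASTOR1 0.86, 0.58 and 0.64. Against control the differences of ATF4 were 0.48, 0.29 and 0.64, and those of CASTOR1 1.02, 0.74 and 0.80, for Col1, VFLP (man) and VFLP (au).

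Within batch D, the 18 injected libraries held 34.4 to 56.3 CPM of ATF4 (median 41.7), and the injury-only library of that batch held 27.8 CPM. CASTOR1 held 22.6 to 46.2 CPM in the injected libraries (median 33.1), against 21.3 CPM in that library. For both genes all 18 injected libraries were above it, with a margin for CASTOR1 of little more than 1 CPM at the lowest. ATF3 and CHAC1 also had all 18 above it, and the share of all genes with this pattern was not counted. Nothing is read from it, since the contrast chose the genes, folds of an animal are not independent and the other side is a single library. The left fold of the same injury-only animal, in batch C, held 28.6 CPM of ATF4 and 17.4 CPM of CASTOR1. The 5 injury-only libraries of batch C covered 27.5 to 33.4 CPM of ATF4 and 15.3 to 22.6 CPM of CASTOR1.

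**Figure D1:**
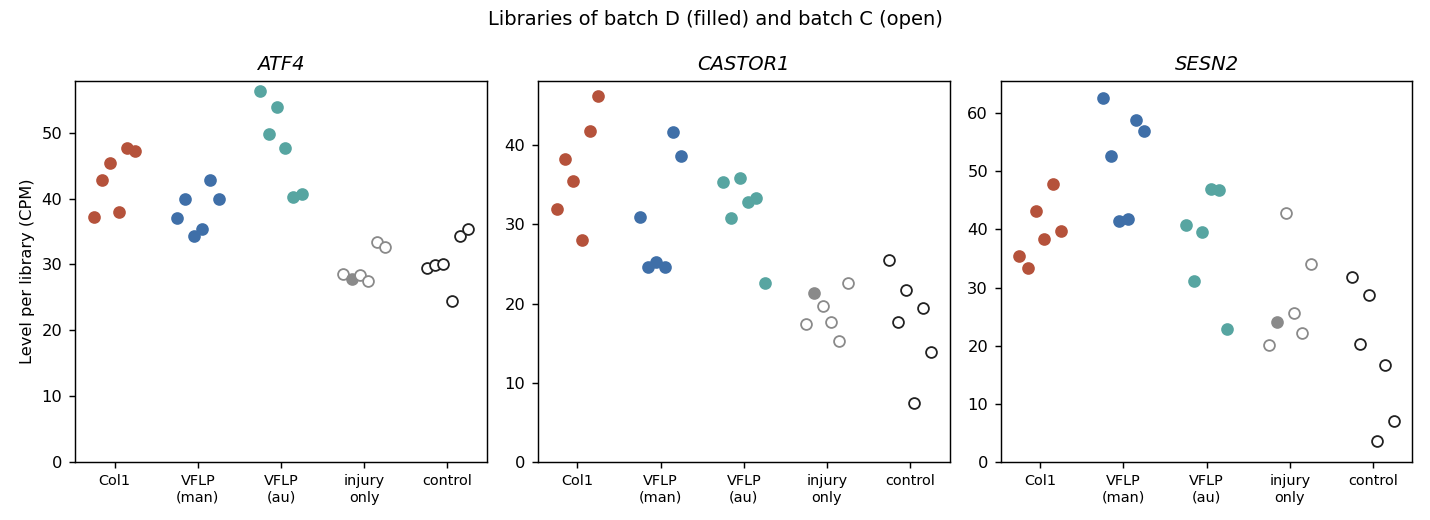
Levels of ATF4, CASTOR1 and SESN2 in CPM (vertical axes) in the 6 libraries of each group, with filled points for batch D and open points for batch C. The single filled injury-only point lies at 27.8 CPM for ATF4 and 21.3 CPM for CASTOR1, under all 18 injected libraries, and at 24 CPM for SESN2, under 17 of them.

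ATF3, a stress-induced transcription factor that ATF4 activates, varied widely between animals. It stood at 22.8, 23.8 and 60.7 CPM in Col1, at 30.4, 20.1 and 25.3 CPM in VFLP (man), and at 46.5, 27.9 and 41.2 CPM in VFLP (au). Injury-only animals had 11.8, 38.9 and 19.3 CPM, and control animals 19.7, 24.9 and 18.3 CPM. Each injected group overlapped injury-only, in which the highest animal held more ATF3 than every VFLP (man) animal.

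DDIT3 encodes CHOP, the factor tied to cell death under prolonged stress. It covered 5.47 to 9.75 CPM over the 9 injected animals (median 7.31) and 5.46 to 12.5 CPM over the 6 animals without injection (median 6.59), and its highest level was in control animal 2. DDIT3 is uncertain, since 27% of the reads at it lay on the other strand, against 5.73% for ATF4. The RefSeq names table (assembly mOryCun1.1, not known to be the build counted) places MARS1 and LOC100338439 over it. CHAC1, which degrades glutathione and is induced through ATF4, reached 8.44 CPM in Col1 animal 3 and 8.96 CPM in VFLP (man) animal 1, while the other injected animals held 1.68 to 5.37 CPM. In injury-only animals CHAC1 covered 1.3 to 3.29 CPM and in control animals 0.657 to 2.19 CPM. TRIB3, a pseudokinase that feeds back on ATF4, was scarce, at 0.299 to 1.34 CPM in injected animals and 0.312 to 2.94 CPM in the rest. These TRIB3 levels rest on as few as 7 reads in a control animal and 15 in a Col1 animal.

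SESN2, a leucine sensor and ATF4 target, stood at 34.2, 41 and 43.9 CPM in Col1, at 58.4, 40.9 and 58.8 CPM in VFLP (man), and at 36.8, 42.4 and 35.8 CPM in VFLP (au). It stood at 22, 34.4 and 28.2 CPM in injury-only and at 25.8, 19.5 and 12.9 CPM in control animals. All 9 injected animals were above all 3 control animals, and 1 Col1 animal, at 34.2 CPM, was below the highest injury-only animal. Its fitted log2 difference from injury-only was 0.51 in Col1, 0.90 in VFLP (man) and 0.46 in VFLP (au), each with an SE of 0.24. A batch term moved these to 0.77, 1.17 and 0.72.

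ASNS, PHGDH and PSAT1 encode biosynthetic enzymes, ASNS making asparagine while PHGDH and PSAT1 catalyse successive early steps of serine synthesis. ASNS covered 34.3 to 40.5 CPM in Col1, 30 to 57.3 in VFLP (man) and 36.4 to 49.8 in VFLP (au), against 32.6 to 45.6 CPM in injury-only and 14.7 to 28.1 CPM in control animals. All injected ASNS levels were thus above control, and all 3 injected groups overlapped injury-only. PSAT1 stood at 104, 115 and 118 CPM in Col1, at 108, 57.4 and 140 CPM in VFLP (man), and at 67.2, 80.7 and 79.3 CPM in VFLP (au). It stood at 75.5, 53.1 and 92.4 CPM in injury-only and at 77.9, 33.3 and 26.7 CPM in control animals, so that of the injected groups Col1 alone lay wholly above both. PHGDH had another order of levels. Its means were 5.42 ± 1.93 CPM in Col1, 3.64 ± 2.38 in VFLP (man), 6.81 ± 0.901 in VFLP (au), 8.58 ± 2.91 in injury-only and 4.22 ± 0.181 CPM in control (SD, n = 3 each), highest in injury-only. One injury-only library, the left fold of animal 3, held 18.7 CPM of PHGDH. The next injury-only library held 8.85 CPM, and injected libraries reached 9.83 CPM.

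**Figure D2:**
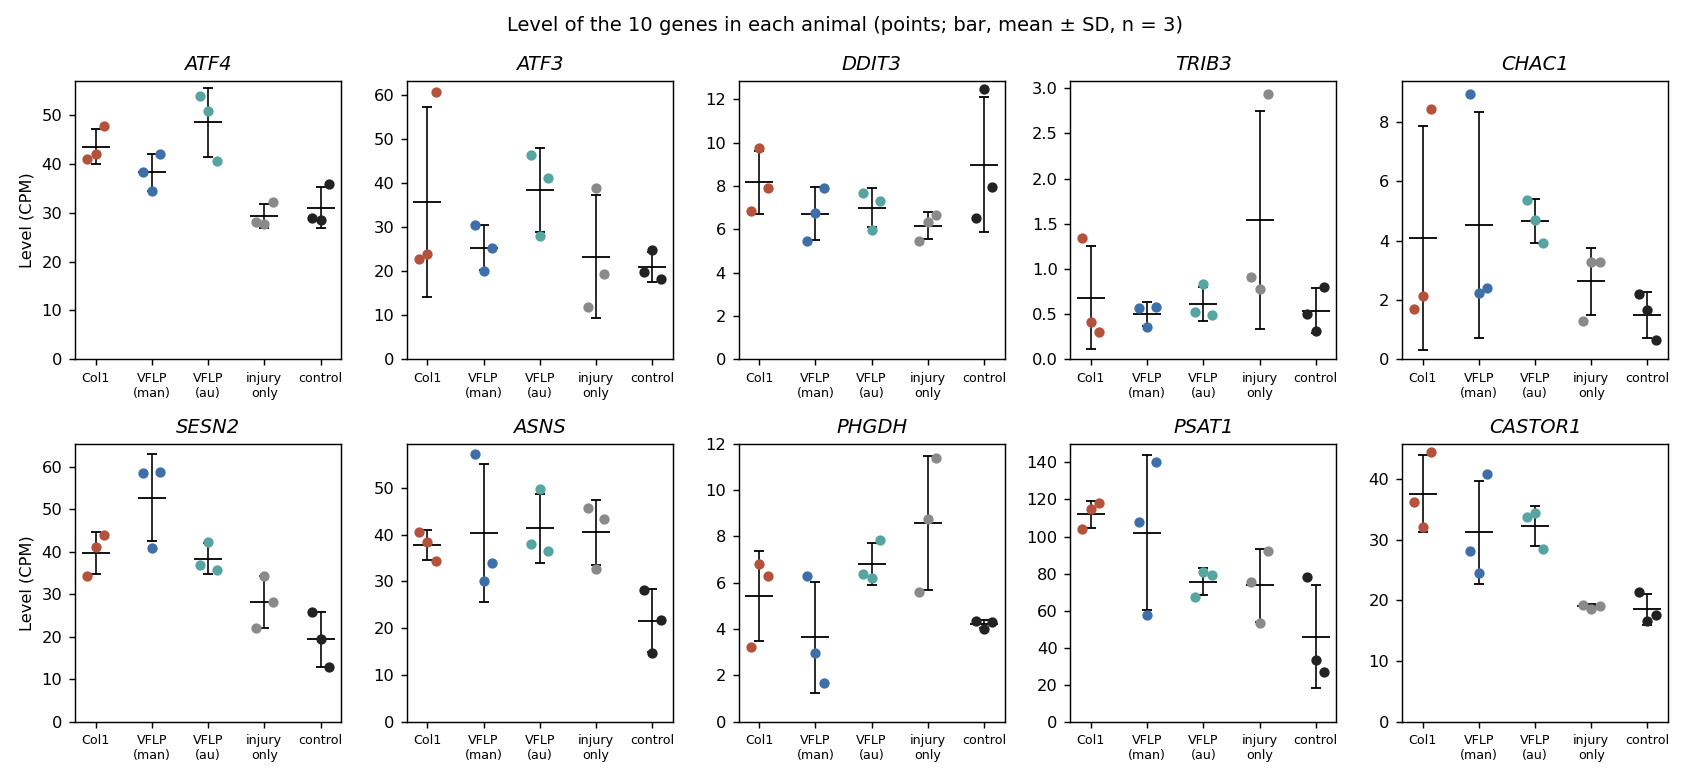
Level of each of the 10 genes in CPM (vertical axes, from 0) in every animal (points), with the group mean and SD (bars, n = 3). CASTOR1 has 9 injected animals between 24.5 and 44.4 CPM and 6 others between 16.6 and 21.3 CPM, and ASNS has its 3 control animals below all others.

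Counting the genes whose animals did not overlap with injury-only gave 4 of 10 for each material. In Col1 these were ATF4, DDIT3, PSAT1 and CASTOR1, all higher, where 22.7% of all genes did not overlap and 11.6% were higher. In VFLP (man) ATF4, SESN2 and CASTOR1 were higher and TRIB3 was lower, against 24.9% of all genes, 11.7% higher and 13.2% lower. In VFLP (au) ATF4, CHAC1, SESN2 and CASTOR1 were higher, against 21.3% of all genes and 11.8% higher. Against control the counts were 5 in Col1 (45.8% of all genes, 22.8% higher), 4 in VFLP (man) (49% of all genes, 25.1% higher) and 7 in VFLP (au) (42.6% of all genes, 20.3% higher), and every one of these genes was higher. SESN2, ASNS and CASTOR1 were among them in each material, and the 3 comparisons share the control animals. The share of all genes higher than control in every material was not counted. Nothing is read from these shares, since the same contrasts chose the genes.

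In each material against injury-only, ATF4 targets outside the 10 genes had a median below that of all genes. The median log2 difference of 21 listed targets was -0.20 in Col1, -0.38 in VFLP (man) and -0.35 in VFLP (au) against injury-only, where the median of all genes was between 0 and 0.01. The 10 genes themselves had medians of 0.54, 0.25 and 0.33 in these comparisons. Such contrasts chose the set, so nothing is read from its gap to the other targets. Endoplasmic reticulum chaperones (19 genes), which respond to unfolded protein, had medians of -0.03, -0.40 and -0.17. For the 36 genes of mTORC1 amino acid sensing outside the 10 the medians were 0.02, 0.02 and 0.11.

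The comparison of injury-only with control asks what stripping without injection left behind, and it was not used to choose the genes. ASNS rose, and was the 1 gene of the 10 to pass the test. It averaged 40.5 ± 6.97 CPM in injury-only animals and 21.6 ± 6.68 CPM in control animals (SD, n = 3 each), with no overlap. The difference was 1.8-fold (log2 0.85, SE 0.26, edgeR adjusted p = 0.037). That 1 of 10 genes stands against 22.1% of all 17815 genes called in this comparison, or 8.33% called higher.

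**Figure D3:**
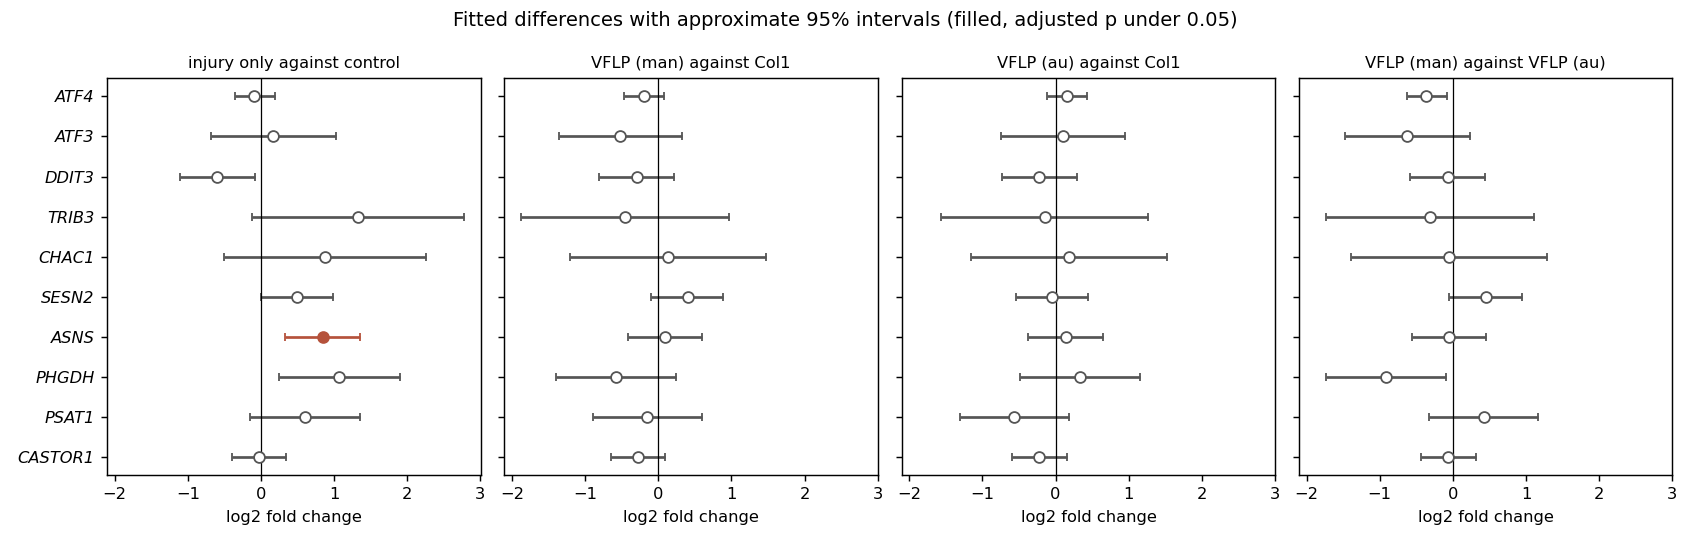
Log2 fold change (horizontal axes) of the 10 genes in the 4 tested comparisons between groups, with approximate 95% intervals of 1.96 SE on either side. ASNS in injury-only against control, at 0.85, is the single filled point and thus the single adjusted p under 0.05.

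PHGDH, at 5.58 to 11.4 CPM in injury-only and 4.01 to 4.33 CPM in control animals, also did not overlap, but missed the threshold (log2 1.07, SE 0.42, edgeR adjusted p = 0.088). ASNS and PHGDH were the 2 genes of the 10 without overlap, where 42.3% of all genes had none. DDIT3 had a log2 difference of -0.60 (SE 0.26, edgeR adjusted p = 0.12), with overlapping animals. For ATF4 the difference was -0.09, with an approximate 95% interval from -0.36 to 0.19, and for CASTOR1 -0.03, with an interval from -0.40 to 0.34 (edgeR adjusted p = 0.69 and 0.93). The other 5 genes had adjusted p values of 0.18 to 0.81, with log2 differences of 0.17 for ATF3, 0.49 for SESN2, 0.60 for PSAT1, 0.87 for CHAC1 and 1.32 for TRIB3. The TRIB3 difference leaned on 1 library, the left fold of injury-only animal 3, with 113 of that animal's 125 reads. With 1 animal left out it ranged from 0.07 to 1.77. Without control animal 1, PSAT1 was at 1.20 (edgeR adjusted p = 0.024) and DDIT3 at -0.79 (edgeR adjusted p = 0.049), both past the threshold. The median over the 10 genes was 0.55, against 0.02 over all genes, and 7 of the 10 were above 0.

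The ASNS call was lost with a muscle covariate and in left folds alone. With the muscle marker level as a covariate the log2 difference was 0.19 (edgeR adjusted p = 0.69). Muscle share did not overlap between these groups, so that fit cannot fully tell muscle and group apart. In left folds alone the log2 difference was 0.42 (edgeR adjusted p = 0.31), and in right folds alone 1.68 (edgeR adjusted p = 0.04). The call was also lost without injury-only animal 1 (edgeR adjusted p = 0.1) or 3 (0.097), without control animal 2 (0.17) or 3 (0.082), and by limma voom over 30 libraries (0.058). Without the right folds of control animals 2 and 3 the log2 difference was 0.60 (edgeR adjusted p = 0.09).

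In control animals the folds differed widely. ASNS stood at 21.7, 3.44 and 11.8 CPM in the right folds of control animals 1, 2 and 3, and at 35.2, 21.2 and 28 CPM in their left folds. PSAT1 stood at 43.6, 4.47 and 7.96 CPM in those right folds and at 112, 50 and 39.3 CPM in the left, and SESN2 at 20.3, 3.55 and 6.93 CPM in the right and at 31.8, 28.7 and 16.6 CPM in the left. All 3 genes were lower on the right in every control animal. CASTOR1 was lower there too, at 17.7, 7.45 and 13.9 CPM in right and 25.5, 21.7 and 19.4 CPM in left folds. ATF4 stood at 29.9, 24.5 and 35.4 CPM in right and 29.4, 30 and 34.3 CPM in left folds. It was thus nearly level in control animals 1 and 3 and lower on the right in animal 2. DDIT3 was higher on the right in each control animal, at 7.38, 16.5 and 10.6 CPM, against 6.02, 9.66 and 5.56 CPM on the left.

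The same right folds of animals 1, 2 and 3 held more muscle marker reads, 5.28, 6.46 and 4.95% of gene reads, against 1.14, 4.42 and 2.71% in the left. Squamous epithelium markers took 1.85, 0.118 and 0.725% of gene reads in those right folds and 2.56, 1.21 and 2.49% in the left. The right fold of control animal 2 was the library with the most muscle and least squamous reads. It had the lowest ASNS, PSAT1, SESN2, CASTOR1, ATF4 and TRIB3 and the highest DDIT3 of all 30 libraries. It also had the fewest gene reads, 14.2 M, and the largest share of reads on no gene, 44.7%. These points share library and depth with the levels beside them.

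**Figure D4:**
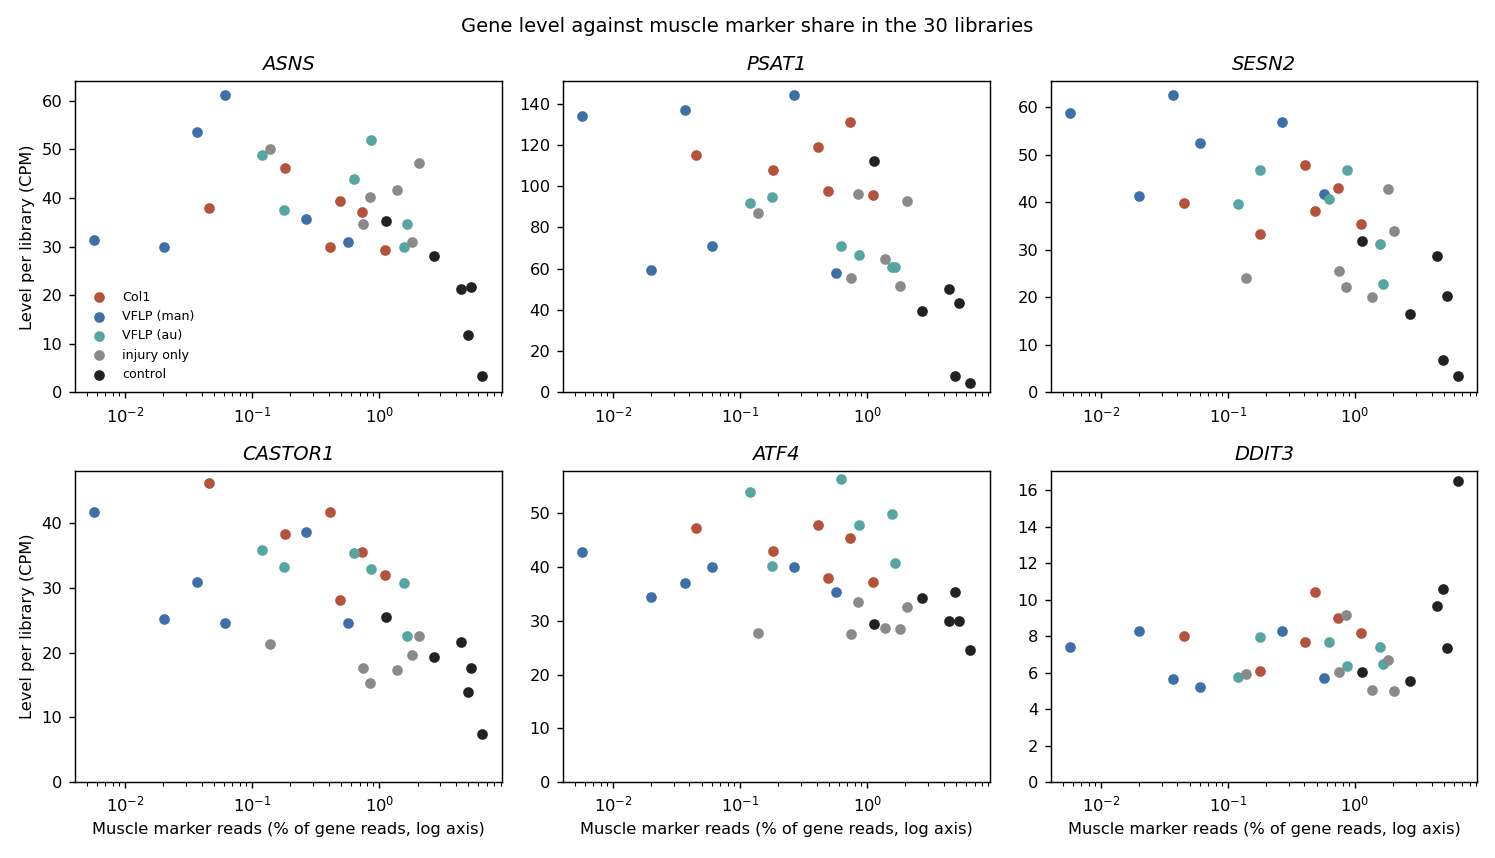
Level of 6 genes in CPM (vertical axes) against the share of gene reads from 13 muscle markers (horizontal axes, log scale) in the 30 libraries, coloured by group. Control libraries, with 1.14 to 6.46% muscle reads, hold the lowest ASNS, PSAT1 and SESN2 levels, down to 3.44, 4.47 and 3.55 CPM.

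Over 14 animals with both folds in one batch, right against left folds gave 0 of the 10 genes at an edgeR adjusted p under 0.05. It also gave 0 of all 15301 genes (0% called), with 1316 at an unadjusted p under 0.05 and 14 called by DESeq2. PSAT1 had the lowest p of the 10, with a log2 difference of -0.61 (SE 0.25, unadjusted p = 0.028, edgeR adjusted p = 0.56). It was followed by SESN2 at -0.45 (SE 0.20, unadjusted p = 0.045, edgeR adjusted p = 0.56). DDIT3 alone was above 0, at 0.01, and the median of the 10 was -0.20, against -0.01 for all genes. Over the same animals all 13 muscle markers were above 0 (median log2 1.16) and 0 of 9 squamous markers were (median -0.24), and their part in these values was not tested. ATF4 had the narrowest approximate 95% interval of the 10, from -0.12 to 0.04.

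**Figure D5:**
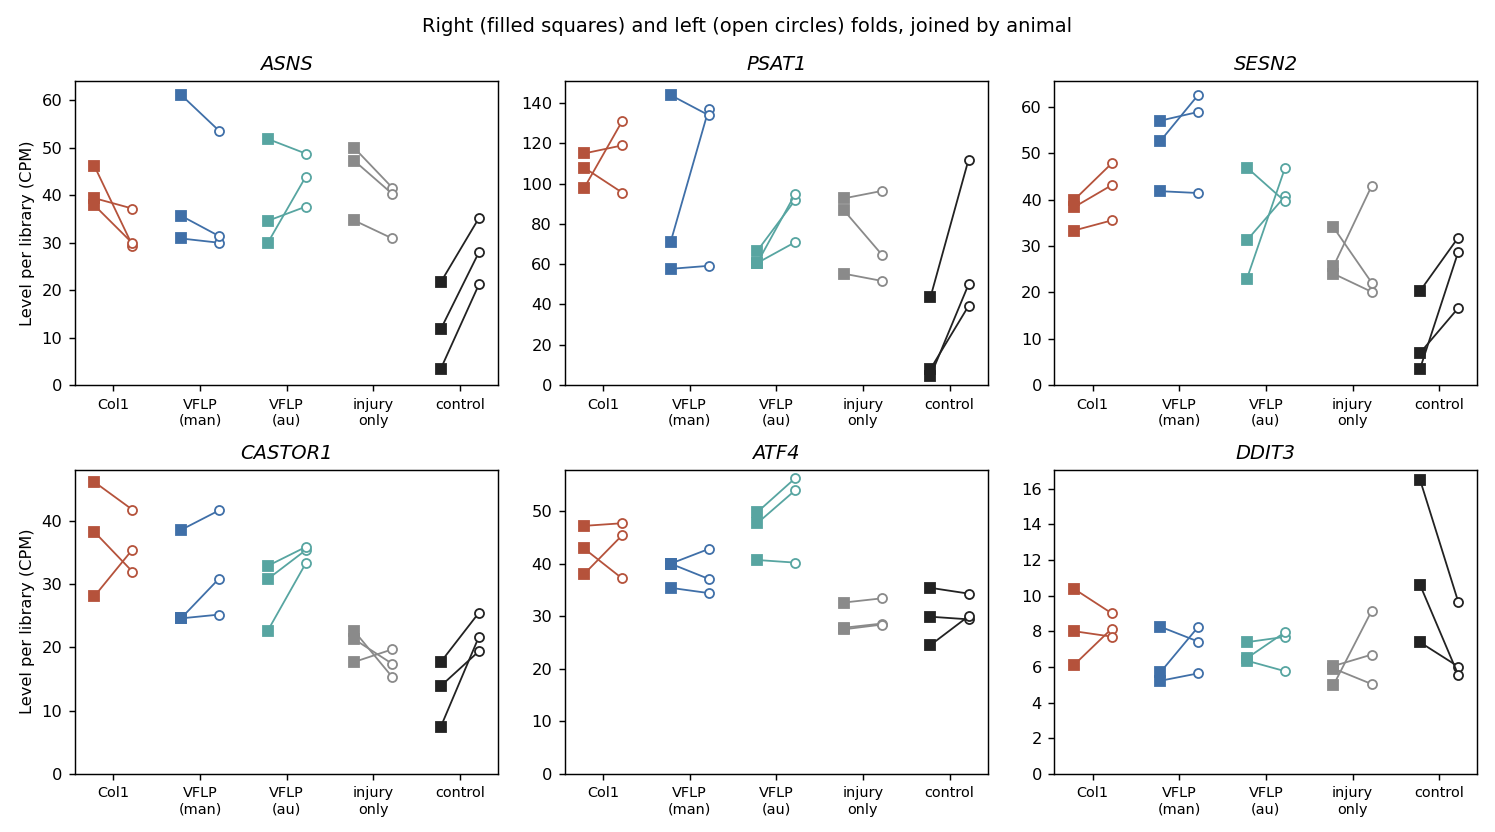
Levels of 6 genes in CPM (vertical axes, from 0) in the right fold (filled squares) and left fold (open circles) of each animal, joined by a line. All 3 control animals have lower ASNS, PSAT1 and SESN2 on the right, with the lowest points in the right fold of control animal 2, where PSAT1 stood at 4.47 CPM, against 50 CPM in the left fold.

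Pathway genes outside the 10 were counted in the same comparison of injury-only with control, where 15 of 168 tested rose and 31 fell. Among all 17815 genes 8.33% were called higher and 13.7% lower, and the counts that follow stand against these shares. Among known ATF4 targets 1 of 21 rose and 1 fell (median log2 0.10). PCK2, a mitochondrial enzyme of gluconeogenesis, rose 2.17-fold (SE of log2 0.36, edgeR adjusted p = 0.043), with 13.6 ± 3.13 CPM in injury-only and 6.17 ± 2.52 CPM in control animals. VLDLR, a lipoprotein receptor, fell 5.19-fold (SE of log2 0.53, edgeR adjusted p = 0.0094), to 75.2 ± 29.3 CPM in injury-only animals, against 427 ± 168 CPM in control animals. Of 18 genes of eIF2 alpha kinases and translation control 1 rose, DNAJC3, an inhibitor of the eIF2 alpha kinases (1.64-fold, adjusted p = 0.035), and 1 fell, GCN1, an activator of the amino acid sensing kinase GCN2 (1.41-fold, adjusted p = 0.0095).

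Of 18 amino acid transporters 4 rose and 1 fell (median log2 0.35), against 8.33% higher and 13.7% lower among all genes. SLC7A7, which carries cationic amino acids out of cells, averaged 10.2 ± 2.09 CPM in injury-only and 3.83 ± 1.42 CPM in control animals (2.64-fold higher, edgeR adjusted p = 0.0073). SLC6A9, a glycine transporter, averaged 36.5 ± 21.5 CPM in injury-only and 9.41 ± 3.75 CPM in control animals (4.13-fold higher, adjusted p = 0.012). SLC7A1, a carrier of arginine, rose 1.71-fold (adjusted p = 0.04), while SLC7A2, another cationic amino acid carrier, fell 2.8-fold (adjusted p = 0.0047). Of 13 serine and one-carbon enzymes outside the 10 genes none rose and 1 fell, GCSH of the glycine cleavage system (2.78-fold, adjusted p = 0.002).

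Endoplasmic reticulum chaperones and unfolded protein response genes rose in 7 of 19 cases, against 8.33% of all genes, and fell in none (median log2 0.45). PDIA6, a protein disulfide isomerase, averaged 262 ± 43.7 CPM in injury-only and 150 ± 38.5 CPM in control animals (1.72-fold higher, edgeR adjusted p = 0.017). EDEM1, which sends misfolded glycoproteins to degradation, rose 1.77-fold (adjusted p = 0.022), CRELD2 rose 1.87-fold (adjusted p = 0.027) and SDF2L1 rose 1.77-fold (adjusted p = 0.028). Secretory epithelium and gland markers moved with them, at 3.6 ± 1.43% of gene reads in injury-only animals and 0.501 ± 0.404% in control animals (9 of 11 markers found), ranging over 1.96 to 4.47% in injury-only and 0.0416 to 0.799% in control animals. BPIFB2 was at 0 in control. Their part in the chaperone result was not tested.

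Of 36 genes of mTORC1 amino acid sensing 15 fell, against 13.7% of all genes, and 2 rose (median log2 -0.28). SESN1, a paralog of SESN2, fell 3.76-fold (edgeR adjusted p = 0.0017), to 27.2 ± 5.49 CPM in injury-only animals, against 105 ± 44.1 CPM in control animals. SESN3, the third sestrin, fell 1.73-fold (adjusted p = 0.0038), whereas SESN2 had a log2 difference of 0.49 that missed the threshold. MLST8, a subunit of mTORC1, fell 2.04-fold (adjusted p = 0.0023), and FNIP1, a partner of folliculin, fell 1.92-fold (adjusted p = 0.0024). CASTOR2, a relative of CASTOR1 picked out after its value was seen, fell 1.73-fold (adjusted p = 0.046).

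Cytosolic aminoacyl-tRNA synthetases, several of which ATF4 can induce, fell in 7 of 19 cases, against 13.7% of all genes, and rose in none (median log2 -0.32). TARS1 averaged 130 ± 19.6 CPM in injury-only and 183 ± 3.31 CPM in control animals (1.44-fold lower, edgeR adjusted p = 0.015). EPRS1 and KARS1 each fell 1.38-fold (adjusted p = 0.018 and 0.028). Mitochondrial protein stress genes fell in 5 of 8 cases (median log2 -0.68), among them the mitochondrial chaperones DNAJA3 (2.1-fold), HSPA9 (1.82-fold) and HSPD1 (1.57-fold) and the protease subunit CLPX (2.01-fold). Of 16 immediate early genes, which respond to handling and stimulation within minutes, none passed the edgeR test and 1, DUSP1, had an unadjusted p under 0.05.

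Injury-only animals also had a lower muscle share, with 8 of 13 muscle markers down, and its part in these falls and rises was not tested. Muscle markers took 0.749 to 1.49% of gene reads in injury-only and 3.33 to 5.25% in control animals, without overlap. A muscle covariate therefore cannot fully tell muscle share and group apart. With the muscle level as a covariate, 1 of 36 mTORC1 sensing genes, 2 of 19 synthetases, 1 of 19 chaperones, 1 of 8 mitochondrial genes and 0 of 18 transporters passed, and 401 of all genes instead of 3933. In left folds alone no gene of any list, and 0 of all genes, passed the edgeR test, while 3756 of all genes had an unadjusted p under 0.05. With each of the 6 animals left out in turn, 7 to 16 mTORC1 sensing genes, 1 to 6 synthetases, 0 to 8 chaperones, 2 to 5 transporters and 4 to 5 mitochondrial genes were called. The lowest counts of the first 4 lists came without injury-only animal 1 or control animal 2.

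Between the injected materials, which lay in one batch, none of the 10 genes passed the edgeR test, and 0, 0 and 2 of them had an unadjusted p under 0.05 in the comparisons given next. VFLP (man) against Col1 gave 0 of 17815 genes (0% called; 1832 at an unadjusted p under 0.05, 389 by DESeq2 and 5 by limma voom). VFLP (au) against Col1 also gave 0 (0% called; 829, 35 and 11 by the same measures). VFLP (man) against VFLP (au) gave 9 genes, all lower (0.0505% called; 1489, 387 and 29). No alternative fit called any of the 10 genes in these comparisons.

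In VFLP (man) against VFLP (au), ATF4 had a log2 difference of -0.36 (SE 0.14, unadjusted p = 0.026, edgeR adjusted p = 0.51) and PHGDH one of -0.92 (SE 0.42, unadjusted p = 0.049, edgeR adjusted p = 0.6). The animals of both groups overlapped for each gene. SESN2 was at 0.45 in VFLP (man) against VFLP (au) and at 0.40 in VFLP (man) against Col1, with approximate 95% intervals from -0.05 to 0.94 and from -0.10 to 0.89. For CASTOR1 the intervals ran from -0.65 to 0.09 in VFLP (man) against Col1, from -0.59 to 0.15 in VFLP (au) against Col1 and from -0.43 to 0.31 in VFLP (man) against VFLP (au). Those of ATF4 ran from -0.47 to 0.08 in VFLP (man) against Col1 and from -0.12 to 0.43 in VFLP (au) against Col1. CHAC1 and TRIB3 were the least precisely measured, with intervals as wide as -1.21 to 1.47 and -1.87 to 0.96 in VFLP (man) against Col1. Of the 168 pathway genes outside the 10, 0 were called by edgeR in each of the 3 comparisons, and 21, 6 and 13 had an unadjusted p under 0.05 in VFLP (man) against Col1, VFLP (au) against Col1 and VFLP (man) against VFLP (au). In VFLP (man) against Col1 the 21 of 168 stood beside 1832 of all 17815 genes. They included 7 of 21 ATF4 targets (median log2 -0.26) and 5 of 19 chaperones (median -0.35, 0 of 19 above 0), and DESeq2 called 2 genes of each of these lists. Both lists were picked out after the values were seen, and each other list held 0 to 3 of the 21.

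As a description over the 15 animals, log2 CPM of ATF4 and CASTOR1 had a Pearson r of 0.852 (Spearman rho 0.832). CASTOR1 followed SESN2 at an r of 0.759 and PSAT1 at 0.741, and ATF4 followed ATF3 at 0.567 and SESN2 at 0.528. The r of ATF4 was 0.043 with DDIT3, -0.157 with TRIB3 and -0.032 with PHGDH. Among 12277 genes with a symbol and a mean of at least 1 CPM, those most like ATF4 were JRK (r 0.889), SAP30BP (0.889), GPN2 (0.888), PLSCR3 (0.884) and N4BP3 (0.877). Those most like CASTOR1 were LRCH4 (r 0.961), UVSSA (0.949), GRAMD4 (0.945), DGCR2 (0.942) and BOK (0.938). LRCH4 stood at 44.7 to 60.8 CPM in the 9 injected animals and at 37.4 to 42.2 CPM in the 6 others. Every other gene named here as most like ATF4 or CASTOR1 was also higher in all 9 injected animals than in all 6 others. That pattern held for 2.05% of all 17770 genes in the fit. All these points share libraries, groups and batches. ATF4 and CASTOR1 were both chosen by contrasts of injected animals with the others. Nothing is therefore read from their r, or from the genes most like them.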

How the data were processed

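RNA was measured in 30 libraries of 15 animals (KAPA mRNA HyperPrep, 100 ng RNA, integrity number above 7, 15 PCR cycles, paired reads of 100 bases, per the labels' protocols). The authors deposited raw read counts per gene for each library, made with STAR 2.7.10b per the submitters' processing notes. The genome build was not given in the sources used here, nor was the annotation. Of the 3 deposited count columns, the one for the second read's strand was used. The 4 entries that name no gene took 23.2 to 44.7% of each library's reads (median 30.4%) and were left out. Depth was 14.2 to 31.9 M gene reads a library. Folds of an animal differed beyond counting error (chi-square per degree of freedom at least 56.2).

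Tests used edgeR 4.0.16 in R 4.3.3 (quasi-likelihood F test, TMM, filterByExpr at a minimum count of 10), with Benjamini-Hochberg adjustment over all genes and a threshold of 0.05. Injury-only against control and the comparisons of materials used 16 units with a batch term, as the folds of 1 injury-only animal lie in different batches. Materials against injury-only or control were described from 15 animals without it. Right and left folds were compared in 28 libraries of 14 animals, with the animal as a block. SE is the absolute log2 fold change over the square root of F, and approximate 95% intervals are 1.96 SE on either side. These intervals are narrower than the F test would give, and some exclude 0 at an unadjusted p above 0.05. Fits were tested on simulated data with a fixed spread, and with changes larger than most reported here, placed in well counted genes. That does not show how smaller differences or scarce genes such as TRIB3 would fare.

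The 10 genes and all lists were chosen with earlier results of these data known. Of 177 genes in 9 pathway lists 170 were found, and of 108 markers in 12 lists 91. Named were the 10 genes, up to 4 called genes of each pathway list by smallest p, and the 5 genes most like ATF4 and CASTOR1 (Pearson r of log2 CPM, prior count 2). The result of 1 gene that this rule takes is not reported here. Of 16731 symbols 15808 matched the RefSeq names table. Alternatives were DESeq2 1.42.0 and its size factors, limma 3.58.1 voom, no low-count filter, unstranded counts, other handling of batch, single folds, a muscle covariate, a replicate block and animals left out. Leaving out single doubtful libraries, and a batch term for materials against injury-only, were added after the data were seen.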

Additional observations from a re-analysis of the deposited data

Results flagged for a closer look

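In the left fold of injury-only animal 3, TRIB3 reached 6.15 CPM, with 1.47 CPM as the next of the 6 injury-only libraries, and PHGDH reached 18.7 CPM, with 8.85 CPM as the next. Each gap was above the critical value of Dixon's test. Of 50 such tests 2 passed, and chance gives about 1 in 20. The same library had the highest share of secretory epithelium markers, 9.35% of gene reads, and whether this bears on the levels was not tested.

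In 7 of 100 pairs of groups, every animal of one group had a right fold above its left and every animal of the other the reverse. These differences between groups were not tested, and the number of pairs that chance would give was not worked out. The injury-only ratios include animal 1, whose folds lie in different batches. The mean log2 ratio of right over left folds (0.1 CPM added) for ASNS was 0.36 in Col1, 0.14 in VFLP (man) and 0.22 in injury-only animals, against -1.51 in control animals. For TRIB3 it was 0.36 in VFLP (man) and 0.87 in VFLP (au), against -1.35 in control animals, where 1 right fold had 0 reads. For ATF3 it was 0.38 in VFLP (man) and -0.68 in control animals. For PHGDH the ratio was 0.59 in Col1 and -0.27 in VFLP (man) animals.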

How the results depend on the processing

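In injury-only against control, the number of the 10 genes called was 1 (ASNS) with a replicate block, 0 by limma voom, in left folds alone, with the muscle covariate and without the right folds of control animals 2 and 3, 2 in right folds alone (ASNS and DDIT3), and 0 to 3 with 1 animal left out (3 without control animal 1: ASNS, PSAT1 and DDIT3). Groups of one batch alone called PHGDH (adjusted p = 0.041) and not ASNS (0.068). Replicate numbers did not pair the animals (same-number correlations -0.5 to 0.19), and the replicate block called 3305 of all genes instead of 3933. All genes called fell to 2136 in groups of one batch, 401 with the muscle covariate, 0 in left folds, 1981 without injury-only animal 1 and 1733 without control animal 2. Materials compared with each other, and folds, had 0 of the 10 genes called throughout.

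With 1 animal left out, genes not overlapping with injury-only numbered 4 to 7 for Col1, 4 to 6 for VFLP (man) and 4 to 7 for VFLP (au), and with control 5 to 6, 4 to 7 and 7 to 9. Unstranded counts gave 3 for VFLP (man) against control.

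Of 760 recomputed log2 differences of the 10 genes, 53 changed sign, none of them called, and the cause was not tested. In injury-only against control CASTOR1 was 0.02 without a batch term, 0.03 by voom, 0.04 in groups of one batch, 0.58 in right folds and 0.06 without the left fold of injury-only animal 3, and the muscle covariate gave -0.3 for ATF3 and -0.66 for CHAC1. That covariate gave -0.65 for ASNS, -1.42 for CHAC1 and 0.23 for DDIT3 in VFLP (man) against Col1, 0.09 for SESN2 in VFLP (au) against Col1, and 0.65 for DDIT3, -0.46 for PSAT1 and -0.07 for SESN2 in VFLP (man) against VFLP (au). Right folds gave -0.08 for ASNS and CHAC1, -0.45 for ATF3, -0.19 for PHGDH and 0.35 for TRIB3 in VFLP (au) against Col1, and 0.11 for ASNS and 0.39 for CHAC1 in VFLP (man) against VFLP (au). Left folds gave -0.04 for CHAC1 in VFLP (man) against Col1 and 0.01 for TRIB3 in VFLP (man) against VFLP (au), and voom 0.05 for TRIB3 in VFLP (au) against Col1.

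Leaving out animals gave ranges across 0. In injury-only against control these were -0.17 to 0.02 for ATF4, -0.38 to 0.47 for ATF3 and -0.13 to 0.08 for CASTOR1. In VFLP (man) against Col1 they were -0.76 to 0.12 for ATF3, -0.84 to 1.25 for CHAC1, -0.8 to 0.48 for TRIB3, -0.25 to 0.27 for ASNS and -0.45 to 0.14 for PSAT1. In VFLP (au) against Col1 they were -0.14 to 0.74 for ATF3, -0.2 to 1.3 for CHAC1, -0.49 to 0.79 for TRIB3, -0.15 to 0.04 for SESN2 and -0.02 to 0.22 for ASNS. In VFLP (man) against VFLP (au) they were -1.02 to 0.28 for CHAC1, -0.39 to 0.13 for ASNS, -0.3 to 0.09 for CASTOR1 and -0.21 to 0.05 for DDIT3.

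Counts of 7 to 125 reads per animal limit TRIB3, and 3 animals a group limit every comparison.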
